A study of Rattus with 6 samples.

Results

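The genes described here encode the enzymes that build cholesterol and fatty acids from acetyl-CoA, together with the proteins that switch these enzymes on and off and 1 carrier protein for sterols. They were picked out by gene symbol, and all 32 symbols were found among the 21378 genes of the deposited count table. The choice was made with earlier results of these data known, so it may in part fix the shares of changed genes given below. RNA sequencing of poly(A)-selected transcripts was carried out on rat cardiac fibroblasts, the connective tissue cells that lay down the heart's matrix, held as a line from a commercial supplier. The tested cells (siNONO, 3 libraries) received an siRNA against Nono by lipofection, and they were set against cells titled siCtrl (3 libraries). The siCtrl cells are labelled elsewhere as given an empty vector, so what they received is not settled here. Both groups came from the same kind of cells and differ, as far as the labels say, only in what was transfected. A harvest at 48 h is named for RT-qPCR and western blotting, and no separate time is given for sequencing. The labels do not say whether replicates were separate cultures, so p-values below measure no more than the spread among these 6 libraries, which may be technical. NONO is a paraspeckle protein that binds RNA and DNA, known for roles in transcription and splicing, and the study asks what changes when its level is reduced.

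Cholesterol is made from acetyl-CoA through mevalonate and isoprenoid units, which are joined to squalene and then folded and trimmed into the sterol ring. Most genes of this pathway share a control: SREBP transcription factors are held in the endoplasmic reticulum by SCAP and INSIG proteins while sterols are plentiful, and are released, cleaved and sent to the nucleus when sterols fall. The same family of factors acts on the genes for fatty acid synthesis, desaturation and elongation, which supply the acyl chains of membranes and stored fat.

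Total counts were between 29692746 and 33365588 in siNONO libraries and between 27792357 and 32869992 in siCtrl libraries. Levels are given as CPM, counts scaled to a common library size with TMM factors, and differences as log2 fold changes of siNONO over siCtrl with their standard error (SE). Adjusted p-values come from the quasi-likelihood test of edgeR, adjusted by Benjamini-Hochberg over the 14412 genes tested, and a gene is called raised or lowered at an adjusted p under 0.05. Nono itself had 69.9, 76.1 and 73.6 CPM in siNONO libraries, against 237, 233 and 247 CPM in siCtrl libraries. The siNONO level was 30.7% of the siCtrl level (log2 fold change -1.70 ± 0.05, edgeR adjusted p = 4.57e-11; exact two-sided permutation p = 0.1, the lowest value possible with 3 libraries a group). Sfpq and Pspc1, the paralogs that pair with NONO, were raised, with log2 fold changes of 0.36 ± 0.04 for Sfpq and 0.88 ± 0.07 for Pspc1 (edgeR adjusted p = 3.45e-05 and 6.35e-07).

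Of the 32 genes, 10 were raised and 2 were lowered in siNONO cells, and 20 did not pass the test. The raised genes were Hmgcs1, Idi1, Fdps, Fdft1, Insig1, Acly, Elovl6, Fads1, Fads2 and Stard4, and the lowered genes were Acss2 and Elovl5. Across all tested genes, 32.1% were called, 16.2% raised and 15.9% lowered, so the share raised here (31.2%) was above that background and the share lowered (6.25%) below it, although the lowered share was not below it with a correction for gene length. All 32 genes passed the filter on low counts. They were more highly expressed than the background, with a median level of 43.7 CPM, against 18.9 CPM over all tested genes. Whether this difference in level bears on the shares called was not tested. The median log2 fold change of the 32 genes was 0.05, against 0.00 over all tested genes, and single genes lay between -0.24 and 0.63. No gene of the 32 changed as much as 2-fold. With scaling by total library size, which moved the median of all tested genes to 0.05, 13 were raised and 2 lowered, against 22.0% raised and 11.6% lowered among all genes.

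The siNONO libraries lay wholly above the siCtrl libraries for 12 of the genes and wholly below them for 6. The remaining 14 overlapped. Among all tested genes the siNONO libraries lay above for 22.9% and below for 22.1%, and 45.0% did not overlap. Summed over the 32 genes, the deposited FPKM values, which correct for gene length, came to 723, 699 and 742 in siNONO libraries and 621, 634 and 620.2 in siCtrl libraries. These genes held 0.228, 0.217 and 0.235% of all counts in siNONO libraries, against 0.194, 0.201 and 0.197% in siCtrl libraries. The lowest siNONO library was thus above the highest siCtrl library on both measures. Both scale by total library size, and abundant genes weigh most in them: Fdps alone had 159.9 FPKM in siNONO cells and 123 FPKM in siCtrl cells. With TMM factors and equal weight per gene, the mean log2 CPM was 5.59, 5.54 and 5.61 in siNONO libraries, against 5.49, 5.51 and 5.50 in siCtrl libraries. In RNA from whole cultures, more cells that use a gene and more RNA of that gene per cell cannot be told apart.

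**Figure D1:**
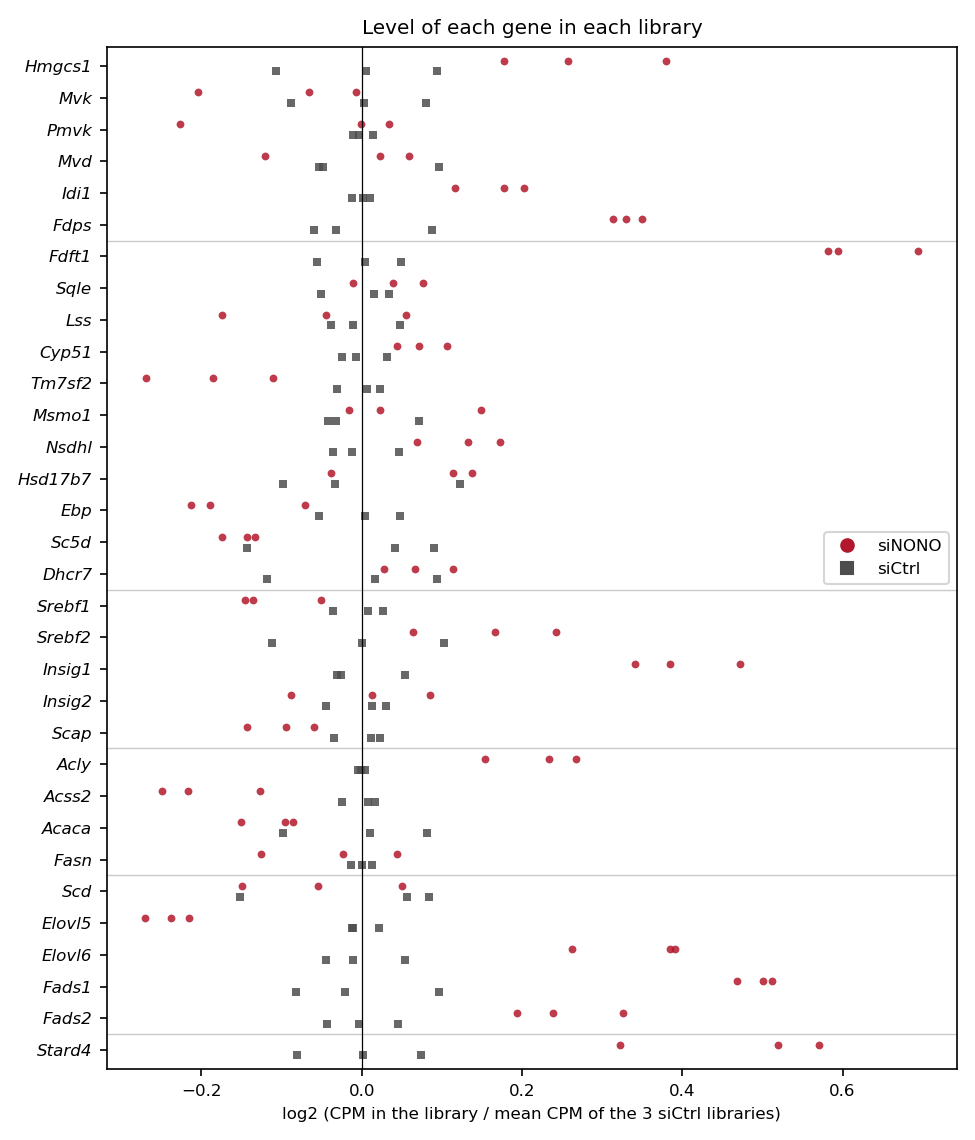
Level of each of the 32 genes in each library, as the log2 of its CPM over the mean CPM of the 3 siCtrl libraries (x axis), with genes in pathway order down the page, siNONO libraries as red circles and siCtrl libraries as grey squares. The siNONO circles stand clear to the right of the squares for genes such as Fdft1, Fads1 and Insig1 and clear to the left for Elovl5, while for 14 genes the groups overlap.

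The first steps turn acetyl-CoA units into isoprenoids, and 3 of the 6 genes measured here were raised, 0 were lowered and 3 did not pass. Across all tested genes, 16.2% were raised and 15.9% lowered. Hmgcs1 (chromosome 2) encodes HMG-CoA synthase, which makes the precursor of mevalonate. It had 129.7, 123 and 141 CPM in siNONO libraries, against 109, 116 and 101 CPM in siCtrl libraries. Every siNONO library was above every siCtrl library, although the libraries of each group were spread by about 7.14% of the mean in siNONO cells and 6.92% in siCtrl cells. On average it had 131 ± 9.36 CPM in siNONO cells and 109 ± 7.50 CPM in siCtrl cells (SD, n = 3 each), and the difference on the log2 scale was 0.27 ± 0.06 (edgeR adjusted p = 0.0027).

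Mevalonate is then phosphorylated by the products of Mvk and Pmvk and decarboxylated by that of Mvd, and none of these 3 genes passed. Mvk (chromosome 12) had 30.5 ± 2.11 CPM in siNONO cells and 32.4 ± 1.88 CPM in siCtrl cells (log2 fold change -0.09 ± 0.06). Pmvk (chromosome 2) had 23.3 ± 2.22 CPM in siNONO cells and 24.3 ± 0.211 CPM in siCtrl cells (-0.06 ± 0.07). Mvd (chromosome 19) had 24.6 ± 1.59 CPM in siNONO cells and 24.8 ± 1.49 CPM in siCtrl cells (-0.01 ± 0.06). The groups overlapped for all 3 genes, and the siNONO spread of Pmvk came from replicate 3, which had 20.8 CPM against 24.3 and 24.9 CPM in the others.

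Idi1 and Fdps make the isoprenoid building blocks and join them to farnesyl pyrophosphate, from which both sterols and protein prenyl groups derive. Idi1 (chromosome 17), isopentenyl-diphosphate isomerase, had 28.6, 27.4 and 29.2 CPM in siNONO libraries, against 25.5, 25.1 and 25.3 CPM in siCtrl libraries. The groups did not overlap, yet the rise was the smallest of the 10 (log2 fold change 0.17 ± 0.05, edgeR adjusted p = 0.0235). It was lost with the DESeq2 Wald test (adjusted p = 0.0828) and without siNONO replicate 1 (0.0841), siNONO replicate 3 (0.0967), siCtrl replicate 2 (0.0593) or siCtrl replicate 3 (0.0632). Fdps (chromosome 2), farnesyl diphosphate synthase, had 219.9, 217 and 223 CPM in siNONO libraries, against 186, 171 and 168 CPM in siCtrl libraries. The siNONO libraries were close together and the siCtrl libraries were not, with siCtrl replicate 1 nearest to the siNONO level. On average it had 220.0 ± 2.70 CPM in siNONO cells and 175 ± 9.65 CPM in siCtrl cells (SD, n = 3 each; log2 fold change 0.33 ± 0.05, edgeR adjusted p = 7.94e-05).

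Fdft1, squalene synthase, catalyses the first step that leads only to sterols, and it had the highest log2 fold change of the 32 genes. On chromosome 15, it had 80.7, 81.4 and 87.2 CPM in siNONO libraries, against 55.8, 54.1 and 51.9 CPM in siCtrl libraries. The lowest siNONO value lay far above the highest siCtrl value. On average it had 83.1 ± 3.60 CPM in siNONO cells and 53.9 ± 1.95 CPM in siCtrl cells (SD, n = 3 each), a 1.54-fold difference (log2 fold change 0.63 ± 0.05, edgeR adjusted p = 5.13e-07). Counting from Hmgcs1 to Fdft1, 4 of 7 genes were raised, against 16.2% of all tested genes. This count depends on where the pathway is divided. With Fdft1 placed among the 11 squalene and sterol steps, 1 of those was raised, and 3 of the 6 genes before them.

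The 10 genes that act after squalene, from Sqle to Dhcr7, gave 0 calls by edgeR's quasi-likelihood test, against 32.1% called among all tested genes. Their log2 fold changes lay between -0.19 and 0.13, with a lowest edgeR adjusted p of 0.0532. The absence of calls depends on the setting: Cyp51 and Nsdhl were called raised, and Ebp and Sc5d lowered, in some of the 18 alternative settings. Sqle (chromosome 7), squalene epoxidase and a known control point of the pathway, had 61.7, 59.7 and 63.4 CPM in siNONO libraries, against 61.5, 60.7 and 58.0 CPM in siCtrl libraries. Its groups overlapped (log2 fold change 0.04 ± 0.05). Lss (chromosome 20), which closes squalene epoxide to lanosterol, had 76.1 ± 6.05 CPM in siNONO cells and 78.9 ± 2.43 CPM in siCtrl cells (-0.05 ± 0.06), also with overlap. Cyp51 (chromosome 4), lanosterol demethylase, had 162, 159 and 166 CPM in siNONO libraries and 152, 158 and 154 CPM in siCtrl libraries. Those groups were just apart, with siNONO replicate 2 next to siCtrl replicate 2, and the gene did not pass (0.07 ± 0.04, edgeR adjusted p = 0.181), although it did with scaling by total library size (0.0358).

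The demethylation steps are carried out by the products of Msmo1, Nsdhl and Hsd17b7. Msmo1 (chromosome 16) had 83.7 ± 5.08 CPM in siNONO cells and 80.7 ± 3.54 CPM in siCtrl cells (log2 fold change 0.05 ± 0.05), and Hsd17b7 (chromosome 13) had 10.6 ± 0.689 CPM in siNONO cells and 10.05 ± 0.804 CPM in siCtrl cells (0.07 ± 0.09). Both overlapped between groups. Nsdhl (chromosome X) had 45.6, 42.5 and 44.4 CPM in siNONO libraries, against 41.8, 39.5 and 40.2 CPM in siCtrl libraries. Its siNONO libraries were all higher, but the difference missed the threshold (0.13 ± 0.05, edgeR adjusted p = 0.0595) and passed it with total library size, without siNONO replicate 2 or without siCtrl replicate 1.

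Reductases and an isomerase finish the ring. Tm7sf2 (chromosome 1), a sterol reductase, had 7.57, 7.98 and 7.15 CPM in siNONO libraries, against 8.75, 8.65 and 8.43 CPM in siCtrl libraries (log2 fold change -0.19 ± 0.09, edgeR adjusted p = 0.115). Ebp (chromosome X), the sterol isomerase, had 23.7, 25.7 and 23.3 CPM in siNONO libraries, against 27.9, 26.0 and 27.1 CPM in siCtrl libraries (-0.16 ± 0.06, edgeR adjusted p = 0.0532). For both, all siNONO libraries were below all siCtrl libraries without passing the test, and Ebp passed it with DESeq2's size factors in place of TMM. Sc5d (chromosome 8), a sterol desaturase, had 42.0, 43.2 and 42.9 CPM in siNONO libraries, against 42.9, 50.4 and 48.7 CPM in siCtrl libraries. There, siCtrl replicate 1 sat at the siNONO level, and the log2 fold change was -0.15 ± 0.06 with it (edgeR adjusted p = 0.0581) and -0.22 without it (adjusted p = 0.00216). Dhcr7 (chromosome 1), which makes cholesterol from its last precursor, had 23.3 ± 0.697 CPM in siNONO cells and 22.2 ± 1.64 CPM in siCtrl cells (0.07 ± 0.06), with overlap.

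**Figure D2:**
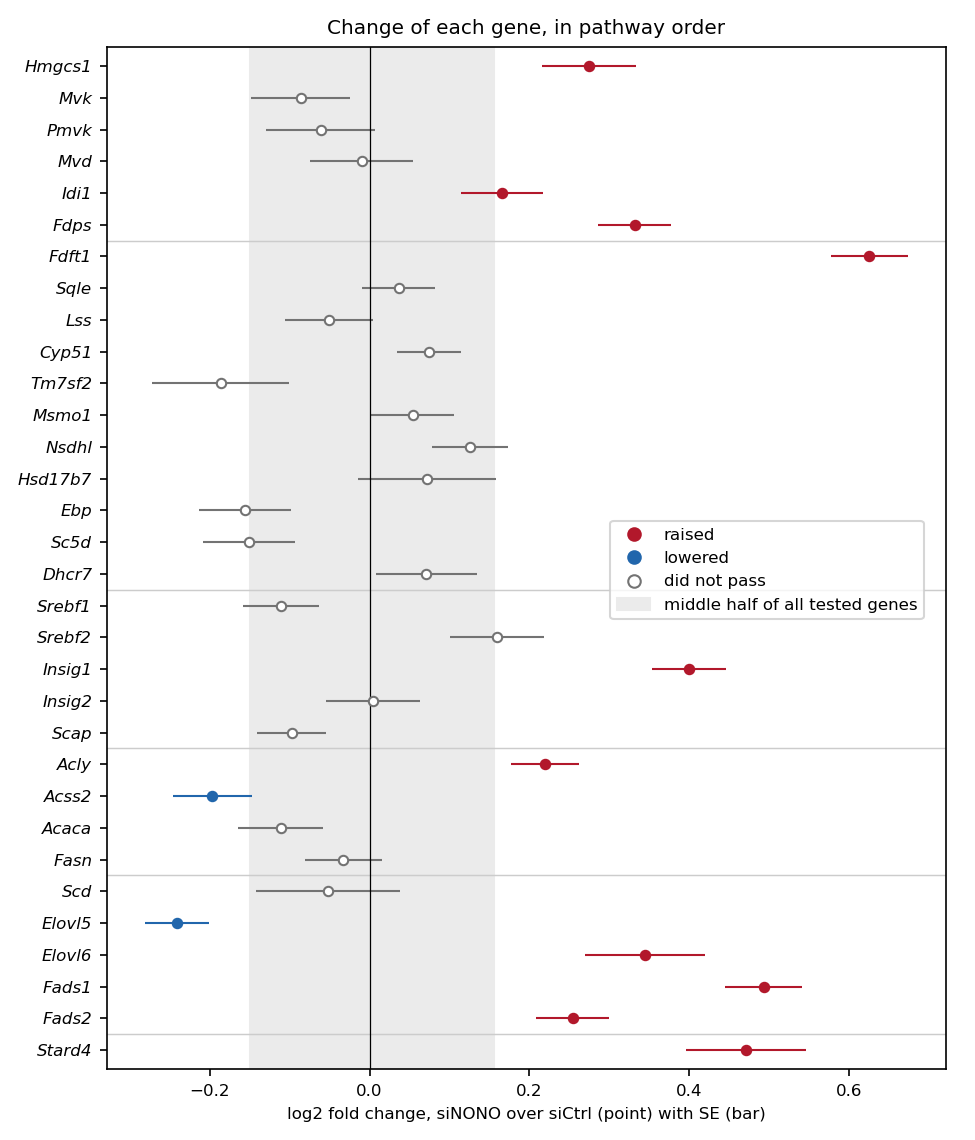
Log2 fold change of siNONO over siCtrl (x axis, point) with its SE (bar) for the 32 genes in pathway order, coloured by the edgeR call, with the interquartile range of all tested genes shaded. From Hmgcs1 to Fdft1 there are 4 raised genes, from Sqle to Dhcr7 there are none called, and the desaturases and elongases hold 3 raised genes and 1 lowered gene. Across all tested genes, 16.2% were raised and 15.9% lowered. The counts of the sterol genes depend on where the pathway is divided, since Fdft1, at the cut, had the highest log2 fold change.

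Among the 5 regulators of the pathway, Insig1 was raised and the other 4 did not pass, while 16.2% of all tested genes were raised. Insig1 (chromosome 4) encodes an endoplasmic reticulum protein that retains the SCAP-SREBP complex, and is itself a well-known SREBP target. It had 184, 179 and 196 CPM in siNONO libraries, against 138, 139 and 146 CPM in siCtrl libraries. No siNONO library came near the siCtrl range, with 186 ± 8.69 CPM in siNONO cells and 141 ± 4.71 CPM in siCtrl cells on average (SD, n = 3 each; log2 fold change 0.40 ± 0.05, edgeR adjusted p = 1.79e-05). Its paralog Insig2 (chromosome 13) had 25.2, 23.5 and 26.5 CPM in siNONO libraries and 25.2, 24.3 and 25.6 CPM in siCtrl libraries. These values overlapped fully, with a log2 fold change of 0.00 ± 0.06.

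Neither SREBP gene passed the test. Srebf2 (chromosome 7), whose product acts mainly on sterol genes, had 91.2, 84.96 and 96.2 CPM in siNONO libraries, against 75.2, 87.3 and 81.3 CPM in siCtrl libraries. Only siNONO replicate 2 fell within the siCtrl range, and the difference lay just outside the threshold (log2 fold change 0.16 ± 0.06, edgeR adjusted p = 0.0522), passing it in 7 of 18 alternative settings. Srebf1 (chromosome 10), whose product acts mainly on fatty acid genes, had 38.6, 36.2 and 36.4 CPM in siNONO libraries, against 39.1, 40.8 and 40.3 CPM in siCtrl libraries (-0.11 ± 0.05, edgeR adjusted p = 0.0903). Scap (chromosome 8), the escort and sterol sensor, had 80.7, 78.0 and 82.6 CPM in siNONO libraries, against 87.4, 86.8 and 84.1 CPM in siCtrl libraries (-0.10 ± 0.04, edgeR adjusted p = 0.0975). For Srebf1 and Scap the siNONO libraries were all lower than the siCtrl libraries, without passing the test.

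Cytosolic acetyl-CoA comes from citrate through ATP citrate lyase (Acly) or from acetate through Acss2, and these genes went opposite ways. Acly (chromosome 10) had 152, 144 and 156 CPM in siNONO libraries, against 129.9, 129 and 129 CPM in siCtrl libraries. The siCtrl libraries were nearly identical, and all siNONO libraries were above them (151 ± 6.09 CPM in siNONO cells and 129.5 ± 0.393 CPM in siCtrl cells, SD, n = 3 each; log2 fold change 0.22 ± 0.04, edgeR adjusted p = 0.00131). Acss2 (chromosome 3) had 32.97, 30.3 and 31.0 CPM in siNONO libraries, against 36.4, 35.4 and 36.2 CPM in siCtrl libraries. All siNONO libraries were lower (31.4 ± 1.38 CPM in siNONO cells and 36.0 ± 0.542 CPM in siCtrl cells, SD, n = 3 each; -0.20 ± 0.05, edgeR adjusted p = 0.00769), but the call was lost when log2(FPKM + 1) was tested instead (adjusted p = 0.0645).

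The enzymes that build the chain itself did not pass. Acaca (chromosome 10), acetyl-CoA carboxylase, had 35.3, 35.1 and 33.8 CPM in siNONO libraries, against 35.0, 39.7 and 37.8 CPM in siCtrl libraries (log2 fold change -0.11 ± 0.05, edgeR adjusted p = 0.127). Fasn (chromosome 10), fatty acid synthase, had 81.0, 75.4 and 84.8 CPM in siNONO libraries, against 83.0, 81.5 and 82.3 CPM in siCtrl libraries (-0.03 ± 0.05). Both overlapped, Acaca through siCtrl replicate 1. Without that library Acaca was called lowered.

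Finished fatty acids are lengthened and desaturated, and of these 5 genes 3 were raised, 1 was lowered and 1 did not pass. The shares over all tested genes were 16.2% raised and 15.9% lowered. Fads1 and Fads2 encode the front-end desaturases that make long polyunsaturated fatty acids, and lie side by side on chromosome 1. Fads1 had 138, 142 and 141 CPM in siNONO libraries, against 98.2, 94.2 and 107 CPM in siCtrl libraries. The siNONO libraries agreed closely and stood well clear of all siCtrl libraries (140.4 ± 2.19 CPM in siNONO cells and 99.7 ± 6.32 CPM in siCtrl cells, SD, n = 3 each), a 1.41-fold difference (log2 fold change 0.49 ± 0.05, edgeR adjusted p = 4.28e-06). Fads2 had 149, 145 and 159 CPM in siNONO libraries, against 123, 131 and 126 CPM in siCtrl libraries. It too was apart in every library (151 ± 7.09 CPM in siNONO cells and 127 ± 3.92 CPM in siCtrl cells, SD, n = 3 each; 0.25 ± 0.05, edgeR adjusted p = 0.000769). The third desaturase of that cluster, Fads3, which is not among the 32 genes, had 43.7 ± 1.88 CPM in siNONO cells and 46.6 ± 0.333 CPM in siCtrl cells and did not pass (-0.09 ± 0.05).

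The elongases moved in opposite directions. Elovl6 (chromosome 2), which extends saturated and monounsaturated fatty acids, had 13.3, 12.2 and 13.2 CPM in siNONO libraries, against 9.83, 10.1 and 10.5 CPM in siCtrl libraries (log2 fold change 0.35 ± 0.08, edgeR adjusted p = 0.00305). Elovl5 (chromosome 8), which extends polyunsaturated fatty acids, had 98.1, 94.4 and 96.5 CPM in siNONO libraries, against 113, 113 and 116 CPM in siCtrl libraries (-0.24 ± 0.04, edgeR adjusted p = 0.000414). Neither gene overlapped between groups. Scd (chromosome 1), a stearoyl-CoA desaturase that puts in the first double bond, had 9.64, 9.03 and 10.4 CPM in siNONO libraries, against 9.01, 10.4 and 10.6 CPM in siCtrl libraries, and these overlapped (-0.05 ± 0.09). Its paralog Scd2, outside the 32 genes, was the far more abundant form and was lowered, with 368 ± 16.7 CPM in siNONO cells and 454 ± 7.602 CPM in siCtrl cells (-0.30 ± 0.04, edgeR adjusted p = 0.000119). Per length, Scd2 had 67.3 ± 3.41 FPKM in siNONO cells and 80.2 ± 2.46 FPKM in siCtrl cells, while Scd had 1.86 FPKM in each.

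Stard4 (chromosome 18) encodes a soluble protein that carries cholesterol between membranes. It had 23.2, 19.5 and 22.4 CPM in siNONO libraries, against 14.7, 15.6 and 16.4 CPM in siCtrl libraries. The lowest siNONO library, replicate 2, was still above all siCtrl libraries. On average it had 21.7 ± 1.92 CPM in siNONO cells and 15.6 ± 0.839 CPM in siCtrl cells (SD, n = 3 each), a 1.39-fold difference (log2 fold change 0.47 ± 0.07, edgeR adjusted p = 0.000285).

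Levels of different genes can be set side by side only per length, in FPKM. Fdps was the most abundant of the 32 in both groups, at 159.9 ± 2.84 FPKM in siNONO cells and 123 ± 5.22 FPKM in siCtrl cells, followed in both by Cyp51 at 49.8 ± 1.34 FPKM in siNONO cells and 45.7 ± 1.50 FPKM in siCtrl cells. The least abundant were Scd, Elovl6 and Hsd17b7, with means of 1.86, 1.89 and 1.997 FPKM in siNONO cells and 1.86, 1.44 and 1.84 FPKM in siCtrl cells. In siNONO cells these neighbours in the order differed by less than the SD of their replicates, and in siCtrl cells Elovl6 was below the other two. Insig1 stood at rank 3 in siNONO cells and at rank 6 in siCtrl cells. Fdft1 stood at rank 11 in siNONO cells and at rank 15 in siCtrl cells, and Elovl5 at rank 8 in siNONO cells and at rank 4 in siCtrl cells.

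**Figure D3:**
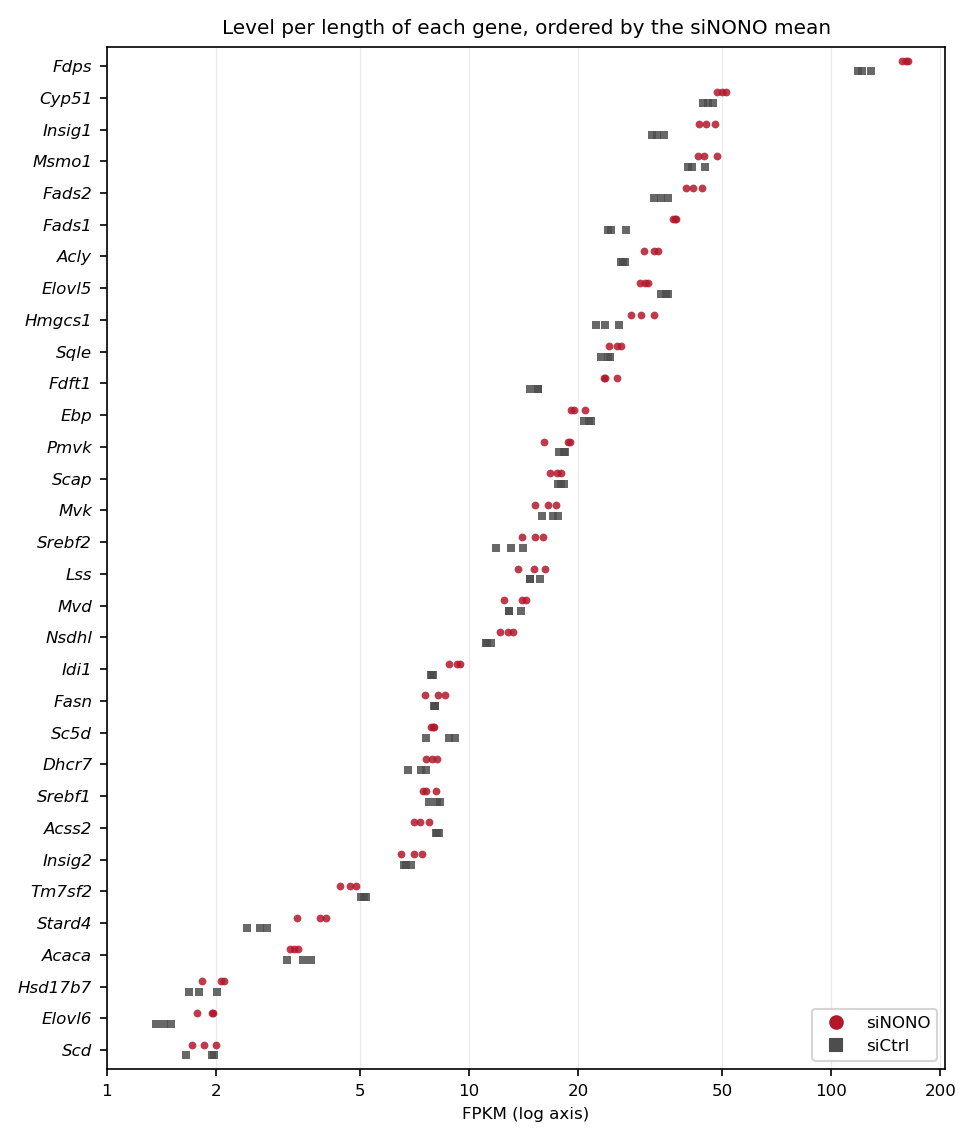
FPKM of each of the 32 genes in each library on a log axis, ordered by the siNONO mean, with siNONO libraries as red circles and siCtrl libraries as grey squares. Fdps lies apart at the top at 159.9 FPKM in siNONO cells and 123 FPKM in siCtrl cells, and Scd, Elovl6 and Hsd17b7 lie at the bottom at about 2 FPKM or less.

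Ratios of related genes within a library do not depend on how libraries are scaled to each other. For 6 such pairs the ratio per length was higher in all siNONO libraries than in all siCtrl libraries. The pairs were chosen with their values known, which in part fixes this separation, so the ratios are given as a description with no test. The Insig1 to Insig2 ratio was 6.37, 6.63 and 6.44 in siNONO libraries, against 4.78, 4.99 and 5.00 in siCtrl libraries. Insig1 was thus the more abundant form per length in all 6 libraries. The ratio of Fdft1 to Sqle, the enzymes on either side of squalene, was 0.957 ± 0.0261 in siNONO cells and 0.636 ± 0.0060 in siCtrl cells (SD, n = 3 each). The Acly to Acss2 ratio was 4.35 ± 0.190 in siNONO cells and 3.26 ± 0.0482 in siCtrl cells, and the Elovl6 to Elovl5 ratio was 0.0621 ± 0.00208 in siNONO cells and 0.0413 ± 0.000931 in siCtrl cells. Srebf2 to Srebf1 (1.95 ± 0.131 in siNONO cells, 1.61 ± 0.0860 in siCtrl cells) and Fads1 to Fads2 (0.886 ± 0.0447 in siNONO cells, 0.750 ± 0.0592 in siCtrl cells) were closer together relative to their spread.

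**Figure D4:**
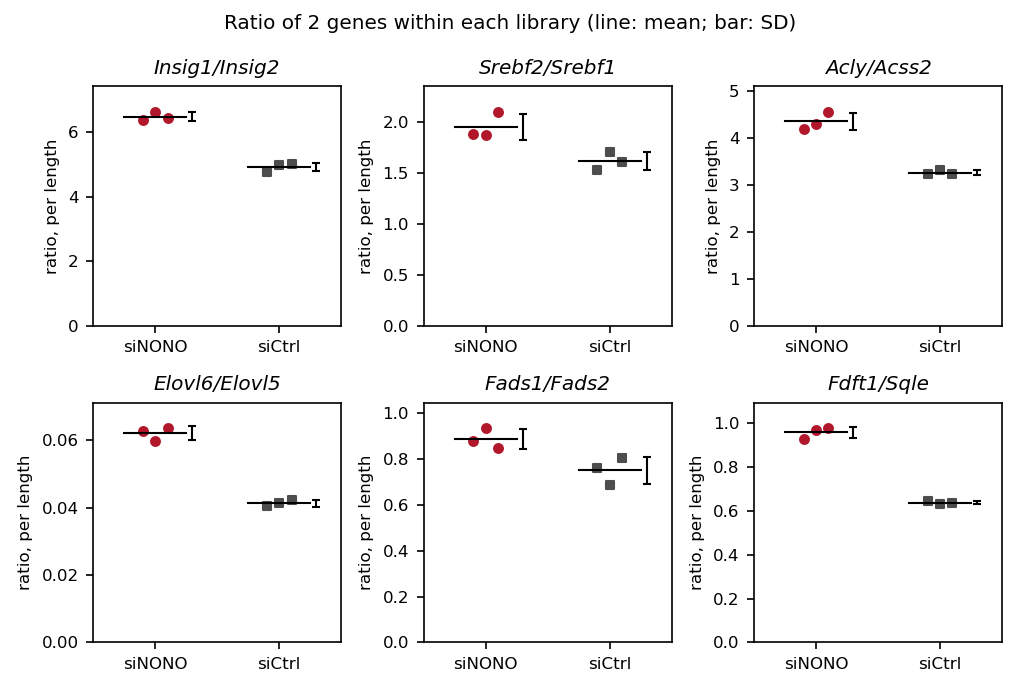
Ratio of a pair of related genes within each library, corrected for gene length (y axis, from 0), with siNONO libraries as red circles on the left and siCtrl libraries as grey squares on the right, the mean as a line and the SD as a bar. In each of the 6 panels all siNONO points lie above all siCtrl points, by the most relative to their spread for Fdft1 to Sqle, Elovl6 to Elovl5 and Insig1 to Insig2.

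The 32 genes lie on 16 chromosomes, with 5 on chromosome 1 and 4 on chromosome 10, and Fads1 and Fads2 are the only neighbours among them in the RefSeq annotation of GRCr8. In that annotation 10 of the 32 overlap another gene, among them the raised Hmgcs1, Idi1, Fdps, Fdft1, Insig1 and Fads2 and the lowered Acss2, and Idi1, Fdps, Nsdhl and Scd have named pseudogenes. Since the use of strand and of reads with several matches is not given in the sources used here, the counts of these genes are uncertain to that extent. Log2 fold change and gene length had a Spearman rho of 0.11 over all tested genes with a length and 0.12 over the 32 genes. For log2 fold change and mean log2 CPM, rho was -0.0037 over all tested genes and 0.32 over the 32 genes. With a correction for gene length alone, added after the data were seen, 11 of the 32 were raised and 6 lowered. The further lowered genes were Acaca, Sc5d, Scap and Srebf1, and the further raised gene was Srebf2. Under that correction 17.9% of all tested genes were raised and 17.9% lowered, so the share of the 32 that was lowered (18.8%) was not below the background there, while the share raised (34.4%) was above it.

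Other lipid gene lists were set beside these genes. Across all tested genes, 16.2% were raised and 15.9% lowered. The shares raised and lowered were 46.2 and 0% for sterol uptake, 13.3 and 26.7% for sterol export, and 21.4 and 21.4% for SREBP processing. They were 29.4 and 17.6% for sterol transfer, 16.7 and 11.1% for other isoprenoid products, and 10 and 25% for further fatty acid genes. For triglyceride and phospholipid synthesis they were 21.7 and 26.1%, and for fatty acid oxidation 14.3 and 14.3%. Of 13 tested genes for sterol uptake and further sterol steps, 6 were raised and 0 lowered (median log2 fold change 0.05). Aacs, which activates acetoacetate for lipid synthesis, and Acat2, which makes the acetoacetyl-CoA used by HMG-CoA synthase, were raised by 0.36 ± 0.05 and 0.22 ± 0.05 on the log2 scale. The list itself had 3 raised genes without siNONO replicate 1, where 11.4% of all tested genes were raised.

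Genes for sterol export and oxysterols gave 2 raised and 4 lowered of 15 tested (median -0.08). Abca1, the exporter of cholesterol to apolipoprotein A-I, had 45.0, 42.9 and 44.3 CPM in siNONO libraries, against 66.4, 64.6 and 65.3 CPM in siCtrl libraries (-0.57 ± 0.04, edgeR adjusted p = 5.03e-07). Apoe, a lipoprotein component, and Ch25h, which makes an oxysterol, were lowered by log2 fold changes of -0.61 ± 0.08 and -0.32 ± 0.04. Abcg1, another exporter, and Cyp27a1, a sterol hydroxylase, were raised by 0.44 ± 0.11 and 0.33 ± 0.05. The exporters Abca1 and Abcg1 thus lay on opposite sides of 0.

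The machinery of SREBP cleavage and of sterol-regulated protein turnover gave 3 raised and 3 lowered of 14 tested (median 0.00). Mbtps1, the protease that makes the first cut in SREBPs, was raised by 0.19 ± 0.04, as were Erlin2 (0.26 ± 0.05) and the ubiquitin ligase Marchf6 (0.23 ± 0.05). Ubxn8 (-0.48 ± 0.06) and Erlin1 (-0.16 ± 0.05) were among the lowered genes. Erlin1 and Erlin2, whose products form 1 complex, therefore had opposite signs, and the Erlin1 call was lost in 11 of 18 alternative settings. Of 17 genes for sterol transfer proteins, 5 were raised, among them Osbpl10 (0.60 ± 0.10), Stard5 (0.60 ± 0.07) and Osbpl9 (0.41 ± 0.04), and 3 were lowered, Gramd1b (-0.34 ± 0.06), Scp2 (-0.31 ± 0.05) and Gramd1a (-0.28 ± 0.05), with a median of 0.01. Of 18 genes that use isoprenoids for other products, 3 were raised, Icmt (0.40 ± 0.08), Pggt1b (0.31 ± 0.06) and Coq5 (0.27 ± 0.06), and 2 were lowered, Fntb (-0.25 ± 0.06) and Rabggtb (-0.23 ± 0.04), with a median of -0.06.

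Further genes of fatty acid synthesis and activation gave 2 raised and 5 lowered of 20 tested (median -0.03). Acsl1, which activates fatty acids, was raised by 0.49 ± 0.07, and its relative Acsl4 was lowered (-0.27 ± 0.05), as was malic enzyme Me1 (-0.39 ± 0.05), a source of NADPH. Slc25a1, the mitochondrial citrate carrier, was raised by 0.13 ± 0.05 with an edgeR adjusted p of 0.048. Triglyceride and phospholipid synthesis gave 5 raised and 6 lowered of 23 tested (median -0.11). The raised genes included Cds1 (0.55 ± 0.18), Cds2 (0.47 ± 0.16) and Ptdss1 (0.24 ± 0.05), and the lowered genes included Gpam (-0.44 ± 0.05), Agpat5 (-0.37 ± 0.06) and Ptdss2 (-0.25 ± 0.05). Leaving out siNONO replicate 2 left 2 raised genes in that list, while 14.2% of all tested genes were raised. Fatty acid oxidation gave 3 raised genes, Cpt2 (0.30 ± 0.06), Hadh (0.17 ± 0.05) and Acadvl (0.13 ± 0.05), and 3 lowered genes, Hadhb (-0.28 ± 0.05), Cpt1c (-0.24 ± 0.05) and Cpt1a (-0.19 ± 0.05), of 21 tested, with a median of 0.01. The calls of Gramd1b, Slc25a1, Cds1, Cds2, Hadh, Acadvl and Cpt1a were each lost in at least 1 alternative setting. None of these counts was tested against those of the 32 genes.

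**Figure D5:**
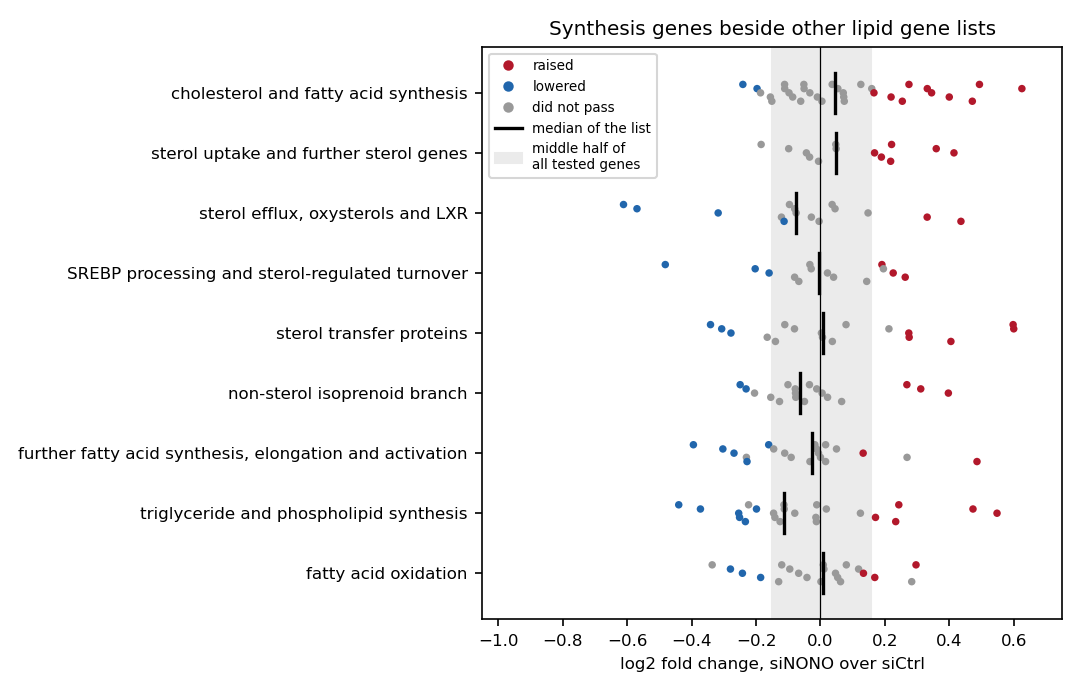
Log2 fold change of siNONO over siCtrl (x axis) of each tested gene in the 32 cholesterol and fatty acid synthesis genes and in 8 other lipid lists (rows down the page), coloured by the edgeR call, with the median of each list as a vertical line and the interquartile range of all tested genes shaded. The medians lie between -0.11 for triglyceride and phospholipid synthesis and 0.05 for the 32 genes and for sterol uptake.

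The labelled cell type and other cell types were checked by their markers. All 12 fibroblast markers were detected, and their summed level was 39781 to 40526 CPM in siNONO libraries and 39932 to 42669 CPM in siCtrl libraries, with 2 raised and 4 lowered. Adipocyte markers, relevant because adipocytes make much lipid, summed to 424 to 467 CPM in siNONO libraries and 707 to 853 CPM in siCtrl libraries, and 0 of 4 tested were raised and 2 lowered. Nearly all of this was Lpl, lipoprotein lipase (439 ± 22.7 CPM in siNONO cells, 747 ± 80.2 CPM in siCtrl cells), while the defining marker Adipoq had 1 count in siNONO replicate 1 and 0 in the other libraries. The summed macrophage and leukocyte markers were 396 to 421 CPM in siNONO libraries and 420.1 to 468 CPM in siCtrl libraries (0 raised, 3 lowered of 9), and those of smooth muscle and pericytes were 469 to 489.6 CPM in siNONO libraries and 502 to 506 CPM in siCtrl libraries (1 raised, 4 lowered of 8). Most of the latter sum was Pdgfrb (408 ± 13.7 CPM in siNONO cells, 417 ± 3.91 CPM in siCtrl cells), which did not pass. The lowered genes were Myh11 (log2 fold change -0.88 ± 0.15), Cnn1 (-0.88 ± 0.16), Cspg4 (-0.58 ± 0.10) and Kcnj8 (-0.28 ± 0.06), and Des was raised (0.36 ± 0.10). Cardiomyocyte markers were 109.5 to 118 CPM in siNONO libraries and 145 to 162 CPM in siCtrl libraries (0 raised, 1 lowered of 3), almost entirely Tnnt2, with Myh6 and Ryr2 near 0. Endothelial markers were 20.1 to 21.2 CPM in siNONO libraries and 17.6 to 19.0 CPM in siCtrl libraries (1 raised, 0 lowered of 6), with Emcn near 0. Most of this was the raised gene Tek (16.3 ± 0.344 CPM in siNONO cells, 13.9 ± 1.24 CPM in siCtrl cells). The defining marker Pecam1 was lower in siNONO cells and did not pass (1.18 ± 0.226 CPM, against 1.65 ± 0.211 CPM in siCtrl cells). The part of other cell types in the changes of the lipid genes was not tested.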

How the data were processed

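The members and lists were chosen with earlier results of these data known. The deposited count table holds whole-number read counts per gene. The deposited FPKM table holds the authors' values per kilobase of gene and library size. HISAT2, edgeR and the build mRatBN7.2 are named in the submitters' processing notes. Their versions, how reads were counted and whether strand was used: not given in the sources used here. There were 0 columns of other samples. Samples were grouped by title. A gene with 0 counts could still lie at up to 3 counts, which is 0.0899 to 0.108 CPM depending on the library (counting error only).

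The counts were tested with edgeR 4.0.16 in R 4.3.3 (filterByExpr, leaving 14412 genes; TMM; quasi-likelihood test, two-sided, 4 residual degrees of freedom, common biological coefficient of variation 4.82%; Benjamini-Hochberg, threshold 0.05). SE was the log2 fold change over the square root of F. The fit was tested on simulated data. Gene lengths were recovered by dividing counts by FPKM and library total, for FPKM of 0.1 or more (98.2% of tested genes). GRCr8 served for neighbours only.

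Named were Nono, Sfpq, Pspc1, the 32 members, and from each other list up to 3 called genes with the largest rise and 3 with the largest fall, with defining markers. Some genes that this rule picks are not reported here. Fads3 and the 6 pairs were chosen after their values were seen.

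The alternatives tried were scaling by upper-quartile factors, by DESeq2 size factors or by total library size alone, no filter and CPM of at least 1 in 3 libraries, the Wald test of DESeq2 1.42.0, limma-voom (limma 3.58.1), a replicate block, limma-trend on log2(FPKM + 1), log2(FPKM + 0.1) and genes of at least 1 FPKM in 3 libraries, a gene length correction (chosen after seeing the data) and leaving out each library. Figures were drawn with matplotlib 3.10.9 in Python 3.11.15.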

Additional observations from a re-analysis of the deposited data

How the results depend on the processing

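Of the 12 called members, 10 kept their call in all 18 alternatives. The exceptions were Idi1 and Acss2. Of the 20 others, 8 were called in at least 1 alternative and 12 in none. Members raised ranged from 9 to 13, while the share raised over all tested genes ranged from 11.4% (without siNONO replicate 1) to 24.2%. The count of 13 came with total library size, where 22.0% of all tested genes were raised. It also came with log2(FPKM + 1) on genes of at least 1 FPKM in 3 libraries, where 24.2% were. Members lowered, 2 as reported, were 4 with upper-quartile factors, 1 with each of the 3 FPKM settings, 6 with the length correction, and 2 to 4 when 1 library was left out (4 without siCtrl replicate 1). Over all tested genes, 17.1% were lowered with upper-quartile factors, 17.9% with the length correction, and 11.6 to 14.6% when 1 library was left out. Of all tested genes, 2292 of 14412 (15.9%) were lowered as reported, 1546 of 14412 (10.7%) with log2(FPKM + 1), and 1424 of 11092 (12.8%) with log2(FPKM + 1) on genes of at least 1 FPKM in 3 libraries, which changes scale and filter together. Calls over all genes were 50.5% raised as reported, 65.5% with total library size, and 64.7, 64.3 and 65.4% with log2(FPKM + 1), log2(FPKM + 0.1) and the FPKM filter. In those alternatives, in that order, the median of the 32 genes was 0.10, 0.08, 0.09 and 0.08. The median of all tested genes was 0.05, 0.03, 0.05 and 0.04 there. As reported, the medians were 0.05 for the 32 genes and 0.00 for all tested genes.

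The replicate numbers showed no sign of pairing the samples: deviations of same-numbered libraries had correlations of -0.05, -0.09 and -0.01. Those of different-numbered libraries lay between -0.04 and 0.09. With 3 libraries a group, this cannot show that there was no pairing. A replicate block gave 9 raised and 2 lowered members and 3757 calls over all genes, against 4630; Idi1 then had an adjusted p of 0.0569.

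Further fatty acid genes raised (2) became 1 with DESeq2 size factors, upper-quartile factors, the DESeq2 Wald test and the block, and 1 to 3 without 1 library. Raised triglyceride and phospholipid genes (5) became 3 with the Wald test and 2 to 5 without 1 library. Fatty acid oxidation genes raised (3) became 1 with the Wald test and the block, 5 with the FPKM filter and 1 to 3 without 1 library, and those lowered (3) became 2 to 5 without 1 library. Sterol uptake genes were 3 to 5 raised and 0 to 1 lowered without 1 library. The share raised over all tested genes moved as well, from 16.2% as reported to 15.8% with DESeq2 size factors and 14.9% with upper-quartile factors. It was 13.4% with the Wald test, 13.1% with the block and 24.2% with the FPKM filter. Without 1 library, 11.4 to 15.3% of all tested genes were raised and 11.6 to 14.6% lowered. Of 42 genes picked by the naming rule outside the 32, 8 lost their call somewhere and 0 changed sign.

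Only members that did not pass changed sign. Mvd was 0.042 with total library size, 0.036 with log2(FPKM + 1) and the FPKM filter, 0.038 with log2(FPKM + 0.1) and 0.0095 with the length correction. Lss was 0.00056 with total library size. Insig2 was -0.0083 with upper-quartile factors and -0.0092 with the length correction. Fasn was 0.019 with total library size, 0.014 with log2(FPKM + 1) and the FPKM filter and 0.015 with log2(FPKM + 0.1). Scd was 0.00085 with log2(FPKM + 1) and the FPKM filter and 0.0019 with log2(FPKM + 0.1). Without 1 library, Pmvk ran from -0.12 to 0.014, Mvd from -0.048 to 0.040, Lss from -0.11 to 0.0030, Insig2 from -0.041 to 0.045 and Fasn from -0.077 to 0.0072. The cause was not tested.

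With 3 libraries a group, the members that did not pass had standard errors of 0.04 to 0.09. Missing the threshold does not show that they did not differ.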
